A study of Homo sapiens with 12 samples.

Results

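Chromatin accessibility was examined at 10 immediate early genes, the EGR genes EGR1, EGR2 and EGR3, the FOS genes FOS and FOSB, the JUN genes JUN, JUNB and JUND, and IER2 and ATF3. The genes were taken by their symbol from a table of 52889 gene entries, and all 10 were found. The cells were HEK293T, a human embryonic kidney line, and all 12 samples were measured by ATAC-Seq, in which the Tn5 transposase inserts sequencing adapters into accessible DNA of isolated nuclei. There were 4 groups of 3 biological replicates. Mock cells carried the empty doxycycline-inducible vector pSBTet-GP, and their day of harvest is not given. The d0 cells (day 0) had constitutive MLL-AF4, from a vector that had been stably transfected into a selected population and not into a single clone. At day 3 (d3) these MLL-AF4 cells carried in addition a transiently transfected, inducible AF4-MLL, which had been switched on with 1 µg/ml doxycycline for 48 h. The labels describe the day 28 (d28) cells as MLL-AF4 cells, and according to the methods of the study doxycycline had been withdrawn from them after d3. The sources used here give Mock cells neither a doxycycline treatment nor an MLL-AF4 vector, so that as described d3 differed from Mock in both fusions, in doxycycline and in the blasticidin given for the same time, whose parts cannot be told apart.

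Immediate early genes are transcribed within minutes of a stimulus without new protein synthesis, because the factors that switch them on, such as SRF with its ternary complex partners and CREB, are already bound or present and are activated by MAP kinases. Their products are mostly transcription factors. EGR proteins are zinc finger factors, whereas FOS and JUN proteins pair through leucine zippers to form AP-1, and ATF3 belongs to the same zipper superfamily. Their promoters are known to be open in many cultured cell lines before any stimulus, so accessibility and transcription need not move together.

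The values are numbers of reads counted on a gene entry. A normalized count is such a number scaled by edgeR's TMM factor to the mean library size of the 12 samples, and a gene with a higher normalized count is called more accessible. Total counts per sample ranged from 353430 to 3539937, and the mitochondrially encoded genes took on average 26.8% of them in Mock, 44.0% at d0, 39.4% at d3 and 65.5% at d28. This left between 249386 and 895319 reads on nuclear genes, so the counts of the immediate early genes were small. JUN alone held 45.0% of all reads on the 10 genes and IER2 15.4%, whereas EGR3 held 1.51%. A gene with 3 reads in a sample had a normalized count between 1.58 and 5.54, which sets the level below which a value has no weight. This limit covers counting error only, and whether PCR copies of a molecule were removed is not given in the sources used here. The intervals of fold changes, by contrast, come from the edgeR fit and include the spread between replicates. The markers checked could not verify the cell type, because genes of blood cells such as SPI1 (mean normalized count 22.8) were counted as often as genes used as HEK293T markers such as GATA3 (23.4), and none of the 5 blood markers was at 0.

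Promoter sequences are shown for the 4 genes that passed the test in at least 1 comparison, to show where matches to known control motifs lie near the start. They are RefSeq sequences of GRCh38.p14, from 250 bases before to 50 bases after the annotated transcription start, 5′ to 3′ on the strand of the gene. Capitals mark matches to the motifs searched on both strands: the CArG box (bound by SRF), TGACGTCA (the cyclic AMP response element, CRE), its variant TGACATCA, the shorter core TGACG, which also lies within TGACGTCA, the AP-1 site TGACTCA, and GCGNGGGCG (the EGR site). The windows lie at chr5:138465229-138465528 (plus strand) for EGR1, chr14:75278578-75278877 (plus strand) for FOS, chr1:58783998-58784297 (minus strand) for JUN and chr1:212565157-212565456 (plus strand) for the first of 2 annotated starts of ATF3.
EGR1: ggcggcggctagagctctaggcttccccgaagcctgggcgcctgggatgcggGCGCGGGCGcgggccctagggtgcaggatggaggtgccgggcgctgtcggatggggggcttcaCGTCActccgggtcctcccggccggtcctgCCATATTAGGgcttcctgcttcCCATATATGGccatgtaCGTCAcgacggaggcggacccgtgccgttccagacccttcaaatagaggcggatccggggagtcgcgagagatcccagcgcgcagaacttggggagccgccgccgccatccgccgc
FOS: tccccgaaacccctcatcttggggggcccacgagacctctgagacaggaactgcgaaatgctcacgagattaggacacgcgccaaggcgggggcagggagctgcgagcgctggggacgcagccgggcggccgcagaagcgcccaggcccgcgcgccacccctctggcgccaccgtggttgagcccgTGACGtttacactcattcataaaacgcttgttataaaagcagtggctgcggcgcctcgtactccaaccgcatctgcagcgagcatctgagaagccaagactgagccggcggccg
JUN: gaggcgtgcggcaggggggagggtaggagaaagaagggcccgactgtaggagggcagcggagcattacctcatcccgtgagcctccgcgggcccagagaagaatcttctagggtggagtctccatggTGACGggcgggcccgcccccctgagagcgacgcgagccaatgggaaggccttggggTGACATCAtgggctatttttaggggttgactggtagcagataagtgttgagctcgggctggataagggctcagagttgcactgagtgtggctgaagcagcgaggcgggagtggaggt
ATF3: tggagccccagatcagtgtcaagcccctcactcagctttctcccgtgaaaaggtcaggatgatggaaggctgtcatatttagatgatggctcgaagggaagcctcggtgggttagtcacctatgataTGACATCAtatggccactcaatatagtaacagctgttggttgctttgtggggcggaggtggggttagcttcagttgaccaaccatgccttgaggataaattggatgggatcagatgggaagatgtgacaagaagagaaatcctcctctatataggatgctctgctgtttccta

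A promoter window was found for 9 of the 10 genes, with 12 windows in all, since EGR2 had 3 annotated starts and ATF3 had 2. EGR1, a zinc finger factor induced by serum, held 2 CArG boxes, at bases -105 to -96 and -83 to -74 from the start, with a TGACG core downstream of them at -66 to -62. A CArG box was also present in the third window of EGR2, at -71 to -62. It was present in 1.29% of the 35116 RefSeq promoter windows of the same length. Sites more than 250 bases before a start were not searched, so FOS is without a CArG box only within its window. FOS and FOSB each held a single TGACG core at nearly the same place, -64 to -60 and -60 to -56, and this core was found in 24.6% of all windows. JUN held the variant TGACATCA at -67 to -60 and ATF3 held it in its first window at -123 to -116, against 2.61% of all windows. The second window of ATF3 held no match to any of the motifs. The complete CRE was present only in JUND among the 12 windows, at -200 to -193 (1.85% of all windows). The AP-1 string TGACTCA was in none of the 12 (4.95% of all windows), which does not exclude AP-1 sites of another sequence, such as variants of this string. The EGR site was in the window of EGR1 and in the second window of EGR2 (9.43%). A match is a string of letters and not a measured binding site, and the reads were counted per gene and not per window.

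**Figure D1:**
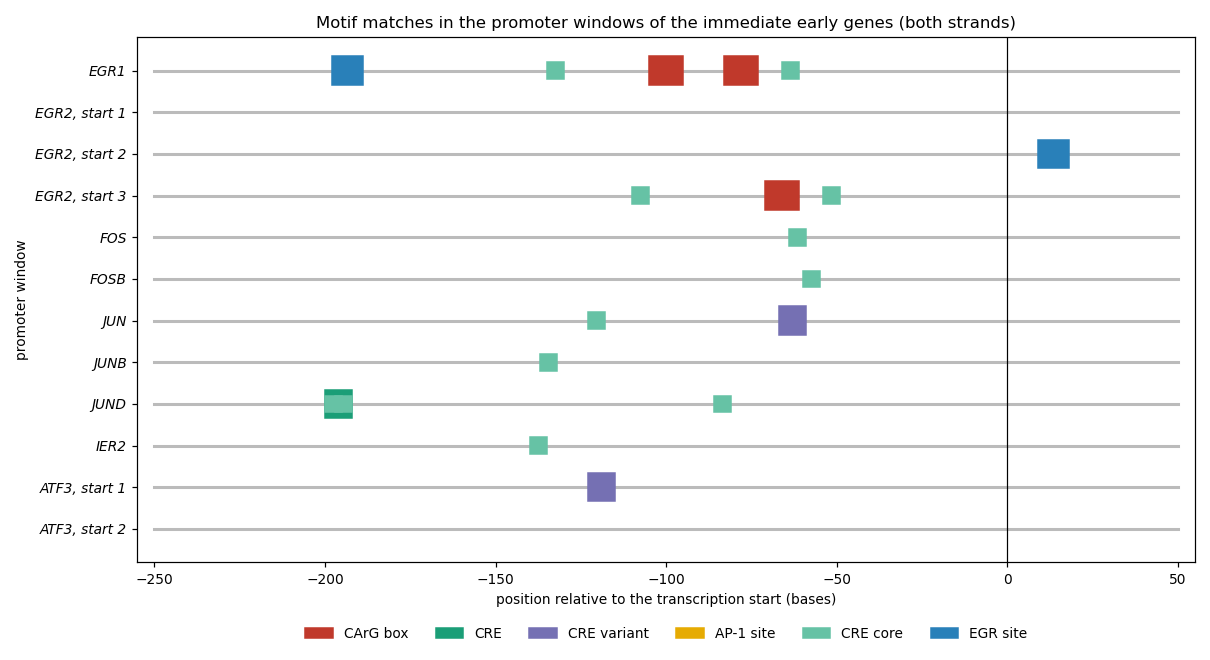
Motif matches in the 12 promoter windows of 9 immediate early genes, with the position from the transcription start in bases on the x axis and 1 line per window. Red boxes are CArG boxes, which are seen in EGR1 (2) and in the third window of EGR2, and light green boxes are the TGACG core, which lies at -64 to -60 in FOS and -60 to -56 in FOSB.

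Above 4 kb the reads were not spread over the genes in proportion to their length. The median normalized count of protein-coding genes was 14.2 for genes of 4 to 8 kb and 18.9 for genes of 256 to 512 kb. Among shorter genes the median rose with length. It was 4.58 for genes of up to 2 kb, the class of JUNB and JUND, and 11.7 for genes of 2 to 4 kb, the class of JUN. Levels are therefore compared between genes only for the JUN genes, which have a single exon each, of 3257 bp in JUN, 1830 bp in JUNB and 1929 bp in JUND. Per kb of gene, the normalized count was 56.2 ± 9.50 (SD, n = 12 samples) for JUN (chr1:58780791-58784047), 13.1 ± 3.34 for JUNB (chr19:12791486-12793315) and 14.2 ± 3.07 for JUND (chr19:18279694-18281622). JUN, the founding AP-1 subunit, was thus the most accessible of the JUN genes per kb in each of the 4 groups, while JUNB and JUND lay within their spread over samples. Without division by length, which the reads did not follow above 4 kb, the mean normalized counts were 183, 24.0 and 27.5. JUNB overlaps HOOK2, and reads from the overlap could have been counted for either or neither gene.

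The first question was how the genes differed at all over the 4 groups. By edgeR's quasi-likelihood F test over all groups, with Benjamini-Hochberg adjustment over 27579 tested genes, 3 of the 10 genes passed an adjusted p of 0.05, against 2.80% of all tested genes. These were ATF3 (adjusted p = 3.18e-04), JUN (0.00705) and FOS (0.0199). EGR1 followed with 0.07, and the remaining 6 genes had adjusted p-values between 0.306 and 0.952. All 10 genes passed the filter on low counts.

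**Figure D2:**
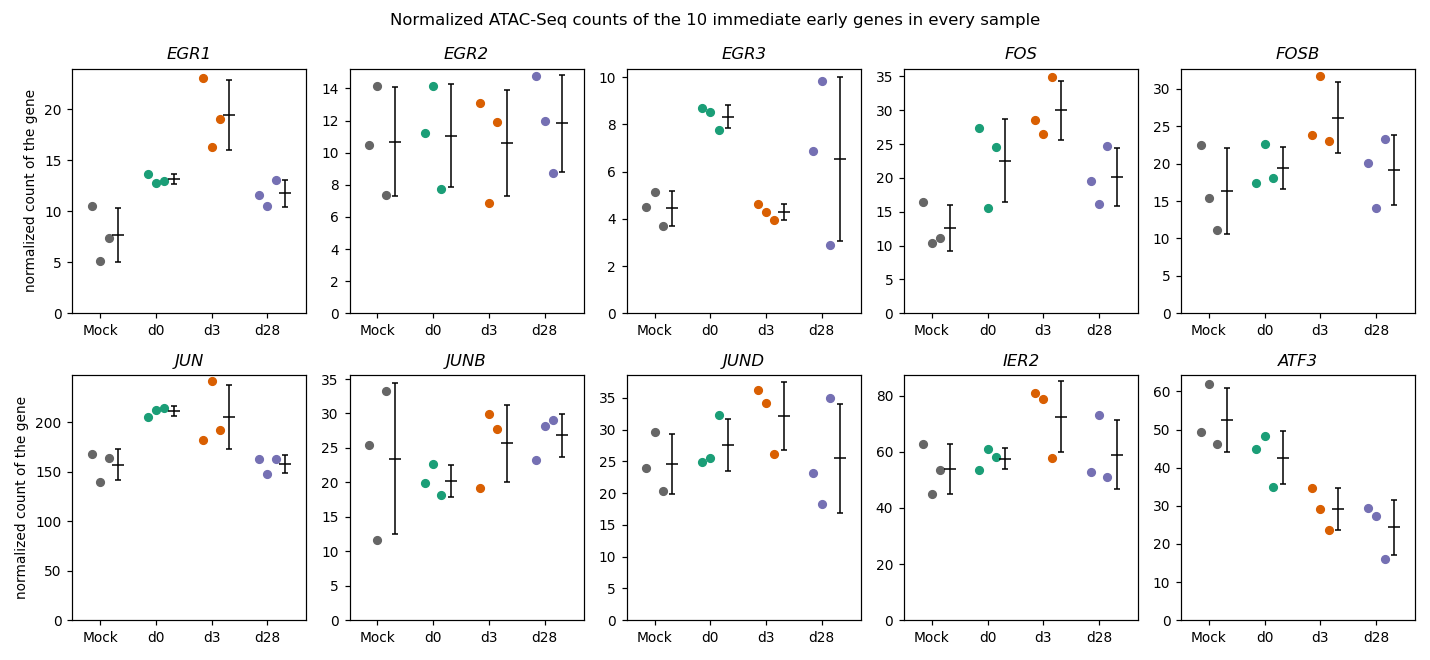
Normalized ATAC-Seq counts of the 10 immediate early genes (y axes, each from 0) in the 4 groups, with 1 point per biological replicate and the mean ± SD (n = 3) as a black bar. EGR1 and FOS are higher in all 3 d3 samples than in all 3 Mock samples, ATF3 is lower in all d3 and d28 samples than in all Mock samples, and JUN is higher in all d0 samples than in all d28 samples.

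EGR1 (chr5:138465479-138469303), which is induced by serum and growth factors and activates genes of growth and repair, was more accessible at d3 than in Mock. Its normalized counts were 10.5, 5.16 and 7.38 in the 3 Mock samples, 13.7, 12.8 and 12.9 at d0, 23.1, 16.3 and 19.0 at d3 and finally 11.6, 10.5 and 13.1 at d28. All d3 samples lay above all others, and all d0 and d28 samples lay above all Mock samples, with Mock replicate 1 just below the lowest d28 sample. The log2 fold change of d3 against Mock was 1.36 (SE 0.39, 95% interval 0.60 to 2.12, edgeR adjusted p = 0.0408). This rests on 4 to 7 reads per Mock sample and 19 to 30 reads per d3 sample. The call was lost without Mock replicate 1 (edgeR adjusted p = 0.0521), Mock replicate 2 (0.302), Mock replicate 3 (0.122), d3 replicate 1 (0.165) or d3 replicate 3 (0.0834), and in 4 of 9 other settings, namely DESeq2 (0.244), library sizes alone (0.189), RLE factors (0.0645) and a fit of only these groups (0.0596), with adjusted p-values from 0.0199 to 0.244 over the 9. The direction was the same in all of them.

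FOS (chr14:75278828-75282230), the AP-1 subunit whose promoter responds to SRF and CREB, was also more accessible at d3. Its normalized counts were 16.5, 10.3 and 11.1 in Mock, 27.4, 15.6 and 24.6 at d0, 28.5, 26.5 and 34.9 at d3 and finally 19.5, 16.2 and 24.8 at d28. All d3 samples were above all Mock samples, whereas d0 and d28 each had a sample within the range of Mock. Against Mock, d3 gave a log2 fold change of 1.25 with a 95% interval of 0.64 to 1.85 (SE 0.31, edgeR adjusted p = 0.00815). At d0 the log2 fold change was 0.85 (edgeR unadjusted p = 0.0155, adjusted p = 0.394) and at d28 it was 0.61 (0.0658 and 0.444). The call at d3 was lost without Mock replicate 2 (edgeR adjusted p = 0.132), Mock replicate 3 (0.0532) or d3 replicate 3 (0.0815). It was also lost with DESeq2 (0.101) and library sizes alone (0.132), within a range of 0.00301 to 0.132 over the 9 other settings.

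FOSB (chr19:45467996-45475179) encodes a FOS relative whose truncated form accumulates under repeated stimulation. It had normalized counts of 22.5, 15.5 and 11.1 in Mock, 17.4, 22.7 and 18.1 at d0, 23.9, 31.7 and 23.0 at d3 and finally 20.05, 14.1 and 23.3 at d28. All 3 d3 samples lay above all Mock samples, by a margin that was small against the spread in Mock. The log2 fold change of d3 against Mock was 0.65 (SE 0.30), with an edgeR unadjusted p of 0.0288 and an adjusted p of 0.364, so that it did not pass.

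The remaining EGR genes did not pass in any comparison. EGR2 (chr10:62811996-62819167), known for its part in myelination and in lymphocytes, had its lowest group mean at d3 (10.6 ± 3.31, SD, n = 3) and its highest at d28 (11.8 ± 3.02), and the samples of all 4 groups overlapped. The 95% interval of its log2 fold change at d3 against Mock ran from -0.83 to 0.74, which leaves a change as large as that of FOSB within it. EGR3, which lies on chromosome 8 and acts downstream of calcineurin signalling in lymphocytes, had 2 to 4 reads per Mock sample, at about the level that 3 reads give. Its normalized counts were 8.71, 8.51 and 7.77 at d0 and 4.62, 4.28 and 3.96 at d3, which did not overlap, but the difference did not pass (edgeR unadjusted p = 0.0679, adjusted p = 0.485). The 95% interval of this log2 fold change ran from -1.94 to 0.07.

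JUN had a course of its own. Its normalized counts were 168, 139 and 164 in Mock, 205, 213 and 215 at d0, 182, 242 and 192 at d3 and finally 163, 148 and 163 at d28. All d0 and d3 samples lay above all Mock and all d28 samples, while Mock (157 ± 15.5, SD, n = 3) and d28 (158 ± 8.89, SD, n = 3) overlapped. The log2 fold change of d28 against d0 was -0.42 (SE 0.12, 95% interval -0.66 to -0.18), with an edgeR adjusted p of 0.0451. That call was just within the threshold and was lost in 10 of 12 fits that left out 1 sample, with edgeR adjusted p-values from 0.0284 to 0.238 over the 12. It was kept only without d3 replicate 1 or d3 replicate 3, samples that are in neither group compared. It was also lost with DESeq2 (0.0972), without a filter (0.238) and with TMM factors taken before the filter (0.11). The difference between d0 and Mock did not pass (log2 fold change 0.43, edgeR unadjusted p = 0.0013, adjusted p = 0.129), nor did d3 against Mock (0.39, 0.00219 and 0.107) or d28 against d3 (-0.38, 9.44e-04 and 0.138). With library sizes alone in place of scaling factors, the direction at d0 against Mock turned, with a log2 fold change of -0.02.

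The other JUN genes and IER2 had no call. JUNB, an AP-1 subunit that often opposes JUN, had normalized counts of 25.4, 11.6 and 33.2 in Mock, which spanned those of all d0, d3 and d28 samples. JUND, the JUN gene that is least dependent on stimuli, had group means from 24.6 ± 4.71 (SD, n = 3, Mock) to 32.2 ± 5.32 (SD, n = 3, d3), with overlapping samples in every comparison. IER2 (chr19:13150411-13154911), an early gene whose product acts in the nucleus, had 62.9, 45.1 and 53.5 in Mock and 80.8, 78.7 and 57.8 at d3. The third d3 sample lay within the range of Mock. Its log2 fold change of 0.44 (SE 0.18) had an edgeR unadjusted p of 0.0128 and an adjusted p of 0.265.

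ATF3 (chr1:212565407-212620777), a stress-induced factor that mostly represses its targets, went the other way. Its normalized counts were 49.4, 61.9 and 46.1 in Mock, 44.8, 48.2 and 35.0 at d0, 34.6, 29.1 and 23.8 at d3 and finally 29.5, 27.4 and 16.02 at d28. The samples of d3 and d28 lay below all Mock and all d0 samples, although the highest d3 sample was just below the lowest d0 sample. Against Mock the log2 fold change was -0.86 for d3 (SE 0.21, 95% interval -1.28 to -0.45, edgeR adjusted p = 0.00719) and -1.02 at d28 (SE 0.21, 95% interval -1.43 to -0.60, edgeR adjusted p = 4.36e-04). Against d0 it was -0.54 at d3 (edgeR unadjusted p = 0.0119, adjusted p = 0.249) and -0.69 at d28 (0.00141 and 0.0745). At d28 the call against Mock held in 11 of 12 fits that left out 1 sample and was lost without Mock replicate 2, the sample with the highest ATF3 count (edgeR adjusted p = 0.108). At d3 it was lost without Mock replicate 2 (0.258) or d3 replicate 3 (0.0953). In each of these comparisons with Mock it held in all 9 other settings, with adjusted p-values up to 0.037 at d3 and up to 0.00358 at d28.

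The order of the group means differed between the genes. EGR1, FOS, FOSB, JUND and IER2 were highest at d3, JUN and EGR3 at d0, JUNB and EGR2 at d28, and ATF3 in Mock. Neighbours in these orders did not differ past the threshold for any gene, with edgeR adjusted p-values of 0.138 or more. The samples of neighbouring groups did not overlap in 5 cases: d3 over d0 for EGR1 and FOSB, d28 over Mock for EGR1, d3 over d28 for JUN and d0 over d3 for ATF3. How often this occurs over all tested genes was not counted, so the number of cases describes these samples only.

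Set out by comparison, the calls were few. For d0 against Mock, MLL-AF4 cells against the empty vector, none of the 10 genes was called by edgeR. Of all tested genes, 0.413% were called higher and 0.196% lower. By edgeR 2 of the 10 had an unadjusted p below 0.05, against 9.65% of all tested genes. None was called with DESeq2, which gave no adjusted p for EGR1, EGR2, EGR3, FOS and FOSB. For d3 against Mock, 2 genes were called higher (0.834% of all tested genes) and 1 lower (0.439%), and 6 of the 10 had an unadjusted p below 0.05, against 11.3% of all tested genes. For d28 against Mock, ATF3 alone was called, lower (0.609% of all tested genes), and none was called higher (0.845%), with 1 of the 10 at an unadjusted p below 0.05 against 12.5% of all tested genes. Against Mock, the 10 genes had a median log2 fold change of 0.17 for d0, 0.37 for d3 and 0.17 for d28, beside medians over all tested genes of -0.00165, 0.0277 and 0.0322. These comparisons share the Mock samples.

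Between the days, d3 against d0, which adds AF4-MLL together with its transfection, doxycycline and blasticidin, gave no call by edgeR or DESeq2 among the 10 genes. DESeq2 gave no adjusted p for EGR1, EGR2 and EGR3 in this comparison. By edgeR 2 of the 10 had an unadjusted p below 0.05, against 11.4% of all tested genes. Of all tested genes, 0.598% were called higher and 0.312% lower. For d28 against d0, JUN was called lower (0.667% of all tested genes) and no gene higher (0.682%), with 2 of the 10 at an unadjusted p below 0.05 against 12.6% of all tested genes. For d28 against d3 none was called by edgeR or DESeq2, and DESeq2 gave no adjusted p for EGR2 and EGR3. Of all tested genes, 0.254% were called higher and 0.116% lower. By edgeR 5 of the 10 nevertheless had an unadjusted p below 0.05, against 8.83% of all tested genes. All 5 were lower at d28, namely EGR1 (log2 fold change -0.76, unadjusted p = 0.00894), FOS (-0.63, 0.00577), FOSB (-0.49, 0.0415), JUN (-0.38, 9.44e-04) and JUND (-0.44, 0.0382), by edgeR. The median of the 10 genes was 0.28 for d3 against d0, -0.20 for d28 against d0 and -0.33 for d28 against d3. Over all tested genes the medians were 0.0243, 0.0363 and 0.00629.

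**Figure D3:**
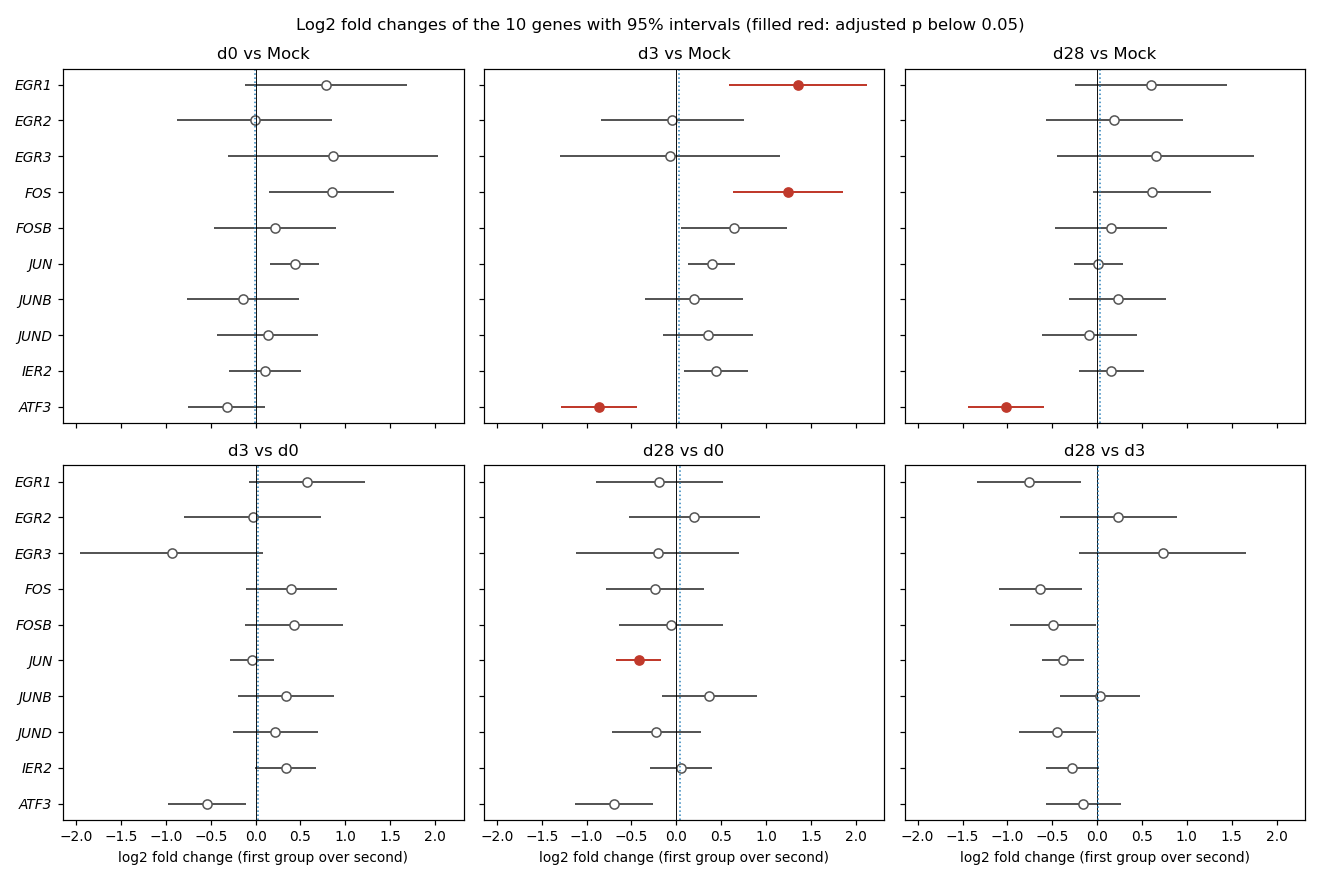
Log2 fold changes of the 10 genes (x axis) in the 6 comparisons, with 95% intervals as lines and the median of all tested genes as a dotted line. Filled red points passed an edgeR adjusted p of 0.05: EGR1, FOS and ATF3 for d3 against Mock, ATF3 for d28 against Mock and JUN for d28 against d0.

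A property of the libraries moved with d3. The 500 protein-coding genes with the most reads per base of gene span, 4 of which are among the 10 genes, were taken without these 4. The other 496 held 5.29% to 5.55% of the nuclear counts in Mock, 5.35% to 5.43% at d0, 5.78% to 5.79% at d3 and 5.07% to 5.25% at d28. Their median log2 fold change was 0.13 for d3 against Mock and -0.18 for d28 against d3, of the same sign as those of EGR1 and FOS and smaller. By edgeR 22 of the 496 were called higher and 3 lower for d3 against Mock, beside 0.834% and 0.439% of all tested genes. For d28 against d3, 0 of the 496 were called higher and 12 lower, beside 0.254% and 0.116%. The housekeeping genes ACTB, GAPDH, EEF1A1 and HSP90AB1 together held 0.07125% to 0.0812% of the nuclear counts at d3, above the 0.0565% to 0.0681% in Mock. The range was 0.0603% to 0.07235% at d0, which overlapped d3, and 0.0595% to 0.0624% at d28. The 4 genes differed, with log2 fold changes for d3 against d0 of 0.687, -0.0091, 0.154 and 0.613 in the order named. The part of these differences in the results for EGR1 and FOS was not tested.

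The genes around each immediate early gene on the chromosome were examined next, with the 20 nearest tested genes on each side in the order of RefSeq. Around EGR1 the 40 neighbours had a median log2 fold change of 0.01 for d3 against Mock, and EGR1 lay above 39 of them. Around FOS the median was 0.09, and FOS lay above all 40. Around JUN the median for d28 against d0 was 0.08, and JUN lay above 3 of the 40. For d3 against d0 the medians around FOSB, JUNB, JUND and IER2, all on chromosome 19, were 0.35, 0.23, 0.24 and 0.285. The genes themselves had 0.43, 0.34, 0.22 and 0.33. JUNB and IER2 start at 12791486 and 13150411, and their neighbours span 1058 and 1567 kb. The medians around JUNB and IER2 therefore rest in part on the same genes. Around EGR1, EGR2, EGR3, FOS and JUN the medians were -0.18, -0.12, 0.01, 0.12 and -0.01. These genes had 0.57, -0.03, -0.94, 0.40 and -0.04. The part of the regions in these values was not tested.

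ATF3 lies on the long arm of chromosome 1, in a stretch whose summed count was lower at d3 and d28 than in Mock. Its 40 neighbours, spread over 7352 kb, had a median log2 fold change of -0.22 for d3 against Mock, with 8 of 40 above 0, and of -0.26 for d28 against Mock, with 16 of 40 above 0. None of the 40 was called by edgeR in either comparison, with 3 at d3 and 8 at d28 at an unadjusted p below 0.05. Over all tested genes these shares were 11.3% and 12.5%. Their summed normalized count was 730 to 746 in Mock, 617 to 701 at d3 and 619 to 663 at d28, without overlap with Mock. At d0, by contrast, it was 803 to 882, above Mock. ATF3 lay below most of its neighbours, with 4 of 40 lower than it at d3 and 2 of 40 at d28 against Mock, whereas against d0 it had -0.54 at d3 beside a neighbour median of -0.42 (14 of 40 lower than ATF3) and -0.69 at d28 beside -0.35 (7 of 40 lower). BATF3, another zipper factor, starts 121 kb from ATF3 and had log2 fold changes of -0.61 at d3 and -1.14 at d28 against Mock (edgeR adjusted p = 0.251 at d28). The part of the lower counts of the region in the result for ATF3 was not tested.

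**Figure D4:**
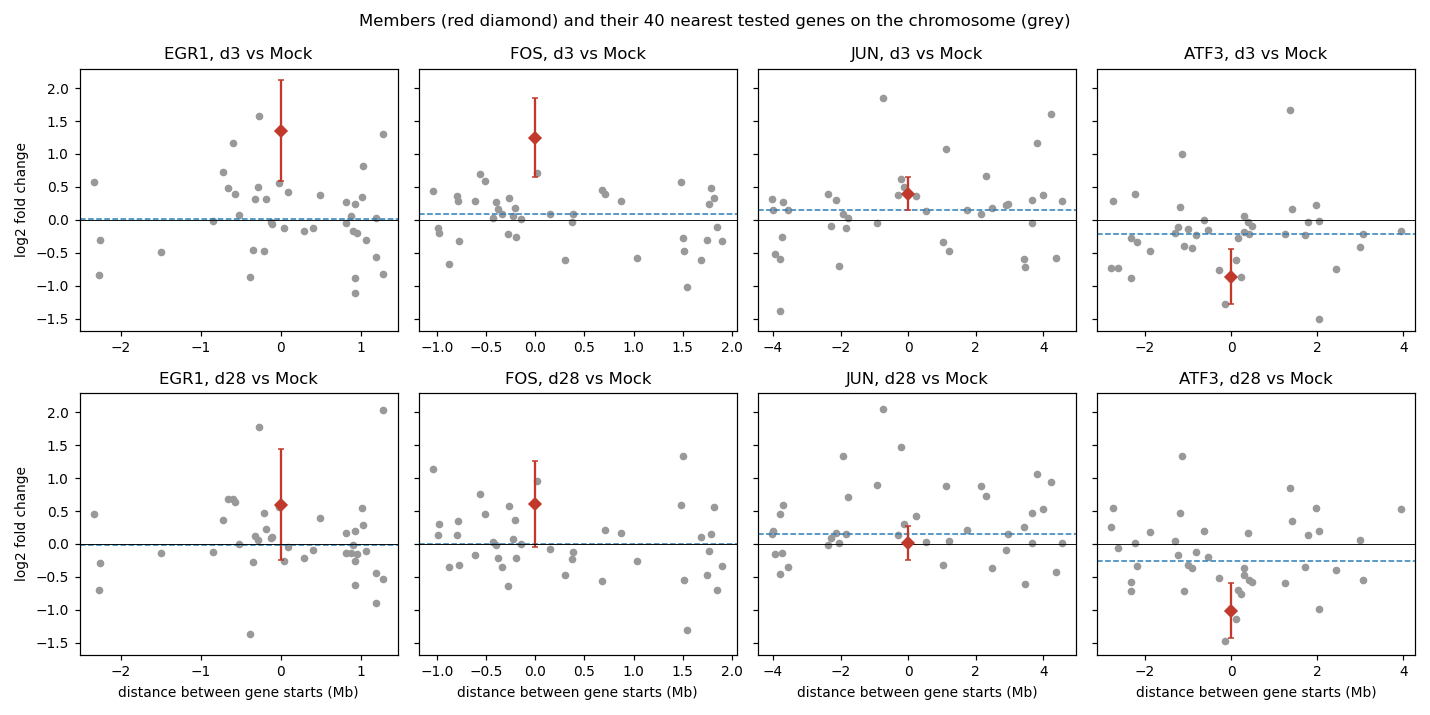
Log2 fold change against Mock (y axis) of EGR1, FOS, JUN and ATF3 (red diamonds with 95% intervals) and of their 40 nearest tested genes (grey), by distance between gene starts in Mb, at d3 (top) and d28 (bottom). The dashed line is the median of the neighbours, which lies near 0 for EGR1 and FOS and at -0.22 and -0.26 for ATF3.

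Added up, the 10 genes had a normalized count of 363 ± 28.3 (SD, n = 3) in Mock, 434 ± 9.11 at d0, 455 ± 40.7 at d3 and 363 ± 5.09 at d28. The d0 and d3 samples, from 420 upward, lay above all Mock samples (338 to 394) and all d28 samples (357 to 367). As a share of all nuclear counts the genes held 0.0790% ± 0.00632 in Mock, 0.0941% ± 0.00177 at d0, 0.0962% ± 0.00861 at d3 and 0.0778% ± 0.00222 at d28. JUN gives the largest part of this sum, although JUN itself was highest at d0 (211) and not at d3 (205). As a share of the total counts, mitochondrial reads included, the order was another one, with 0.0559% in Mock, 0.0490% at d0, 0.0546% at d3 and 0.0222% at d28. Among 8323 genes whose mean normalized count reached 20, the courses most like that of the sum over the 12 samples were those of RPL27A (root mean square difference 0.0769 on the log2 scale), PDIA4 (0.104) and RAB8A (0.107), beside a median of 0.323 over the candidates.

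Related genes were described from 4 lists. Of 15 tested genes of the AP-1 and EGR families and their partners, FOSL2, a FOS relative, was called, lower at d3 than in Mock (0.439% of all tested genes), and no gene was called higher (0.834%). For d3 against Mock, 3 of the 15 had an unadjusted p below 0.05 by edgeR, against 11.3% of all tested genes. FOSL2 had 49.4, 63.2 and 53.5 in Mock and 34.6, 32.5 and 22.2 at d3, without overlap (log2 fold change -0.90, SE 0.21, edgeR adjusted p = 0.00277). The call was lost without Mock replicate 2 (edgeR adjusted p = 0.156) or d3 replicate 3 (0.0834). At d3, FOS was thus higher and FOSL2 lower than in Mock. The median log2 fold change for d3 against Mock was 0.09 in this list, 0.145 for the other immediate early genes, -0.02 for the upstream factors and 0.02 for the feedback inhibitors, beside 0.03 over all tested genes.

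Of 26 tested other immediate early genes, none was called against Mock, although 7 at d0, 3 at d3 and 4 at d28 had an unadjusted p below 0.05 by edgeR, beside 9.65%, 11.3% and 12.5% of all tested genes. PPP1R15A, which encodes the stress-induced partner of protein phosphatase 1 that restores translation, was called between the days, higher at d3 than at d0 (0.598% of all tested genes) and lower at d28 than at d3 (0.116%). It had 14.9, 28.4 and 15.5 at d0, 53.9, 42.8 and 44.4 at d3 and finally 21.6, 23.2 and 21.8 at d28. All d3 samples lay above all others, although the lowest d3 sample was just above the highest in Mock (37.4, 30.9 and 42.5). The log2 fold change was 1.28 for d3 against d0 (edgeR adjusted p = 1.82e-04) and -1.08 for d28 against d3 (2.27e-05), and these calls and that of IER5 held in all 12 fits that left out 1 sample. IER5, an early gene linked to the heat shock response, had 57.2, 59.6 and 58.3 at d0 and 29.0, 26.0 and 24.8 at d28, with a log2 fold change of -1.10 (edgeR adjusted p = 1.46e-05, 0.667% of all tested genes called lower).

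Of 19 tested upstream kinases and factors, MAPK8, which encodes the kinase JNK1 that phosphorylates JUN, was the single call (0.312% of all tested genes called lower). It was lower at d3 (26.9, 11.1 and 22.2) than at d0 (36.1, 36.9 and 41.4), with a log2 fold change of -0.90 (edgeR adjusted p = 0.0301). The call was lost without any single d0 sample, d3 replicate 2 or d3 replicate 3, with edgeR adjusted p-values up to 0.304, and with DESeq2 (0.127), library sizes alone (0.151) or no filter (0.0853). No gene of this list was called against Mock, with 2 at d0, 1 at d3 and 1 at d28 at an unadjusted p below 0.05, beside the same shares of all tested genes.

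Among the 13 tested feedback inhibitors of MAP kinase signalling, 1 was called higher and 2 lower at d3 than in Mock, beside 0.834% and 0.439% of all tested genes. SPRED1, an inhibitor of RAS signalling, rose from 5.99, 12.9 and 12.9 to 21.6, 24.0 and 26.2 (log2 fold change 1.17, edgeR adjusted p = 0.0473). That call was lost without any single Mock or d3 sample (up to 0.327), and in 6 of 9 other settings, DESeq2 included (0.275). DUSP2, a phosphatase of ERK and p38, fell from 10.5, 19.3 and 14.8 in Mock to 7.70, 4.28 and 2.38 at d3 (log2 fold change -1.62, edgeR adjusted p = 0.0281), a call lost without Mock replicate 2 or 3 or d3 replicate 2 or 3 (up to 0.349) or without a filter (0.0715). At d28 it had 3.69, 2.11 and 0, below all d0 samples (13.7, 14.2 and 12.9), with a log2 fold change of -2.55 against Mock and -2.40 against d0 (edgeR adjusted p = 9.47e-05 and 4.21e-04). These d28 values come from 7, 3 and 0 reads, so the size of the fold depends on the prior count of the fit. DUSP8, a phosphatase of JNK, fell from 13.5, 12.9 and 11.1 in Mock to 0.77, 6.85 and 3.96 at d3 (log2 fold change -1.71, edgeR adjusted p = 0.0415). That call was lost without any single Mock sample or d3 replicate 1 or 3 (up to 0.29), without a filter (0.0978) or in a fit of only these groups (0.0696). DESeq2 gave no adjusted p for this comparison of DUSP8 or for the calls of DUSP2, so they were not checked there. The other genes of this list, DUSP1, DUSP6 and SPRY2 among them, were not called in any comparison.

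**Figure D5:**
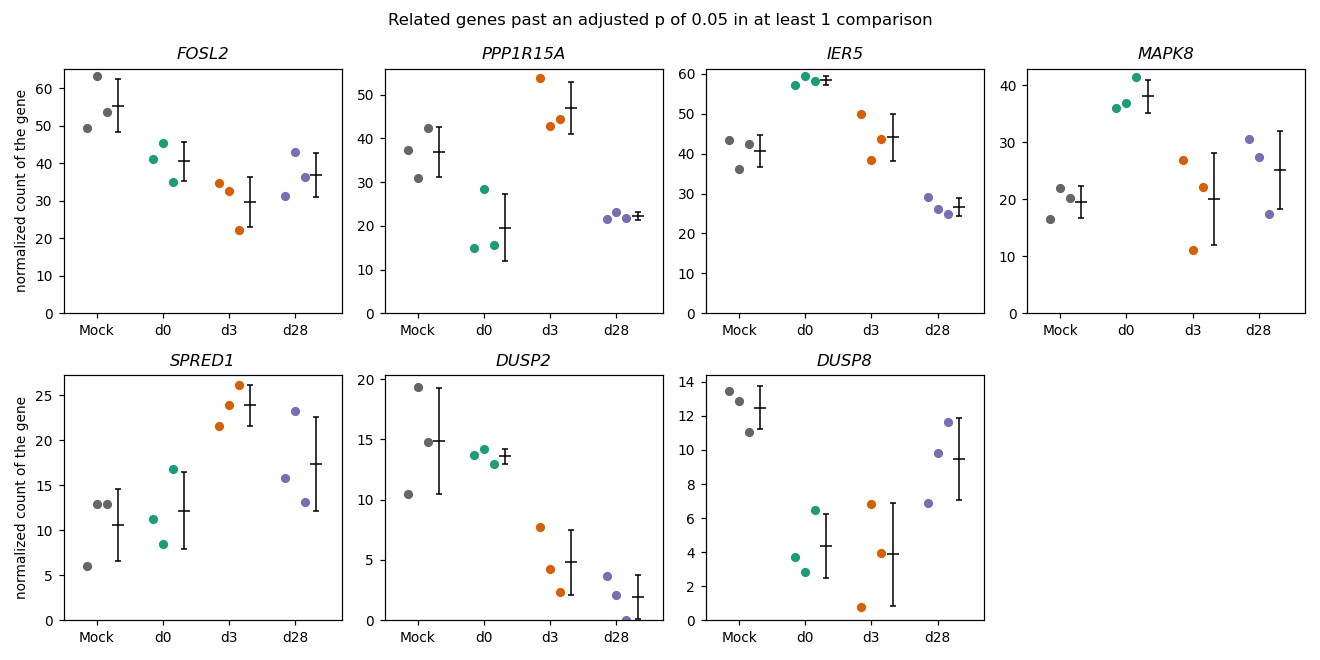
Normalized counts (y axes, each from 0) of the 7 genes of the related lists that passed an edgeR adjusted p of 0.05 in at least 1 comparison, by group, with 1 point per biological replicate and the mean ± SD (n = 3) as a black bar. PPP1R15A and SPRED1 are highest at d3, IER5 and MAPK8 at d0, and FOSL2, DUSP2 and DUSP8 in Mock.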

How the data were processed

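ATAC-Seq was performed in 12 HEK293T samples, and the authors deposited 1 table of raw counts, the whole numbers of reads per gene entry, without normalization. Per the labels, reads were demultiplexed with bcl2fastq, aligned with Bowtie2 to GRCh38 and counted with HTSeq. Their versions, the interval counted per gene, any correction for the Tn5 offset, the handling of duplicates and the annotation release are not given in the sources used here, so a promoter cannot be separated from its gene. Total counts per sample ranged from 353430 to 3539937.

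The analysis used edgeR 4.0.16 under R 4.3.3. The 27579 genes whose mean normalized count exceeded 2 in any group were kept, TMM factors were computed on them, and the quasi-likelihood F test was fitted to all 12 samples with the 4 groups as the design, without a block. Benjamini-Hochberg adjustment was made over all tested genes, and a gene was called at an adjusted p below 0.05. The standard error is the log2 fold change divided by the square root of F, and the 95% interval is 1.96 standard errors on each side. The study used DESeq2, which was tried as an alternative (1.42.0), as were RLE factors, library sizes only, other filters, mitochondrial genes left out, fits of only 2 groups, the replicate number as a block, and each sample left out. TMM factors taken before the filter were added after seeing the data. Pairs of replicates differed by more than counting noise (chi-square per degree of freedom 1.05 to 1.28), so all were kept. Nothing in the sources used here says that same-numbered samples share an origin. All members are named, and of the related lists those genes that passed. The members and lists were chosen with earlier results of these data known. The scripts were tested on simulated data. Gene positions and promoters are from RefSeq GRCh38.p14, which was matched by symbol. Plots were made with Python 3.11.15 and matplotlib 3.10.9.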

Additional observations from a re-analysis of the deposited data

How the results depend on the processing

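Depth limits these results, since most of the 10 genes had under 50 reads per sample, and Mock was the group with the lowest total counts. The same-numbered samples did not deviate together (correlations between -0.152 and 0.0821 over 8330 genes), and in the fit with replicate block the calls stayed at 0, 3, 1, 0, 1 and 0 genes for d0, d3 and d28 against Mock, d3 against d0, d28 against d0 and d28 against d3, with none of the 10 genes changing its call. In the same order, 111, 214, 217, 147, 173 and 66 of all 27579 tested genes were called higher in this fit, and 45, 111, 154, 76, 162 and 25 lower. Leaving out mitochondrial genes and their nuclear copies changed no call of the 10 genes either.

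EGR1 at d3 lost its call with RLE factors (edgeR adjusted p = 0.0645) and with only the groups compared (0.0596). With DESeq2, d3 against Mock had 1 call (ATF3, so 0 higher and 1 lower in place of 2 and 1) and d28 against d0 had 0. Of all tested genes, 0.192% and 0.214% were called lower there. DESeq2 gave no adjusted p for EGR2 and EGR3 in the first of these comparisons, or for EGR1, EGR2, EGR3, FOS and FOSB in the second. With filterByExpr d28 against d0 had 2 calls (JUN and ATF3), and without a filter or with TMM factors taken before the filter it had 0. The shares of all tested genes called lower were then 1.87%, 0.136% and 0.468%, against 0.667% in the main fit. TMM factors taken before the filter added JUN at d3 against Mock (log2 fold change 0.47, edgeR adjusted p = 0.0249). This made 3 higher and 1 lower, beside 395 and 93 of all 27579 tested genes. Leaving out 1 sample at a time gave 0 to 3 calls for d3 against Mock, 0 to 1 for d28 against Mock and 0 to 1 for d28 against d0. Of all tested genes, 0.177% to 0.437%, 0.276% to 0.627% and 0.232% to 0.731% were called lower in these fits. For d3 against Mock, 137 to 247 of all tested genes were called higher. Without Mock replicate 2 none of the 3 comparisons kept a call, d3 against Mock kept 1 (ATF3) without Mock replicate 3 and 0 without d3 replicate 3.

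Library sizes alone, which include the mitochondrial reads, shifted the median of all genes to -0.48, -0.37, -1.34, 0.10, -0.88 and -0.98 in the order of comparisons above. The calls were then 1, 1, 7, 0, 8 and 8, all lower, beside 4.37%, 2.09%, 57.6%, 0.0807%, 39.6% and 51.8% of all tested genes called lower. Against Mock, the log2 fold change turned to -0.23 for FOSB, -0.0176 for JUN, -0.308 for JUND and -0.347 for IER2 at d0, to -0.171 for JUNB and -0.0116 for JUND at d3, and to -0.761 for EGR1, -1.18 for EGR2, -0.699 for EGR3, -0.746 for FOS, -1.21 for FOSB, -1.34 for JUN, -1.13 for JUNB and -1.20 for IER2 at d28. For d3 against d0 it turned to 0.0482 for EGR2 and 0.0478 for JUN. For d28 it turned to -0.728 for EGR2, -0.532 for JUNB and -0.85 for IER2 against d0, and to -0.777 for EGR2, -0.261 for EGR3 and -0.959 for JUNB against d3. EGR1 and FOS were still higher at d3 than in Mock, without a call (0.993 and 0.889, edgeR adjusted p = 0.189 and 0.132).

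Other turns were near 0. JUN at d28 against Mock was -0.00464 with DESeq2, -0.00434 with RLE factors and -0.000816 with filterByExpr. Without a filter EGR2 was 0.0013 (d0 against Mock), 0.0307 (d3 against Mock) and 0.0294 (d3 against d0), and JUN was 0.0217 (d3 against d0). With TMM factors before the filter these were 0.00161, 0.0308, 0.0292 and 0.0215. Leaving out 1 sample at a time, the log2 fold change crossed 0 in 18 of the 60 values. For EGR2 it ran from -0.213 to 0.284 (d0 against Mock), -0.227 to 0.264 (d3 against Mock), -0.0186 to 0.503 (d28 against Mock), -0.223 to 0.186 (d3 against d0) and -0.016 to 0.406 (d28 against d0). For EGR3 at d3 against Mock it ran from -0.155 to 0.0818, and for FOSB at d28 against d0 from -0.161 to 0.123. For IER2 it ran from -0.014 to 0.26 (d0 against Mock), -0.0203 to 0.311 (d28 against Mock) and -0.136 to 0.184 (d28 against d0). For JUN it ran from -0.0431 to 0.0867 (d28 against Mock) and -0.173 to 0.0256 (d3 against d0). For JUNB it ran from -0.504 to 0.162 (d0 against Mock), -0.153 to 0.514 (d3 against Mock), -0.117 to 0.55 (d28 against Mock) and -0.134 to 0.163 (d28 against d3). For JUND at d28 against Mock it ran from -0.247 to 0.116, and for ATF3 at d28 against d3 from -0.306 to 0.00472. Apart from the shift and mitochondrial reads under library sizes alone, the cause was not tested.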
